A study of Mus musculus with 4 samples.

Results

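The let-7 and miR-98 family comprises 9 mature miRNAs here, mmu-let-7a-5p, mmu-let-7b-5p, mmu-let-7c-5p, mmu-let-7d-5p, mmu-let-7e-5p, mmu-let-7f-5p, mmu-let-7g-5p, mmu-let-7i-5p and mmu-miR-98-5p, written below without prefix and arm. Their hybrid reads were chosen by name, as every AGO2-CLASH chimeric read listed with one of them, and the members were pooled because they share a seed. They accounted for 1515 chimeric reads of 1213 distinct sequences, with 925 target genes of the 8440 listed for all miRNAs. AGO2-CLASH ligates a miRNA to the RNA it contacts while AGO2, the protein that carries the miRNA, is immunoprecipitated after UV cross-linking, so that a hybrid read holds a segment of each. The cells were primary kidney glomerular mesangial cells (MMC) of the C57BL/6J strain, grown untreated in RPMI medium with foetal bovine serum. There were 2 libraries from wild type cells (WT A and WT B) and 2 from miR-379 knockout cells (KO A and KO B, labelled miR-379KO in the plots), whose mouse line carries a short deletion at miR-379 made by injecting CRISPR-Cas9 nickase RNA into fertilised eggs. The labels do not say whether A and B came from separate cultures or animals, so p-values measure the spread between these libraries, which may be technical.

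let-7 miRNAs repress mRNAs that hold a match to the seed, bases 2 to 8 counted from the 5′ end. They are known for holding back growth and stem cell programmes through targets such as Hmga2, Lin28b and Myc. A match to bases 2 to 7 (tacctc in the target) or 2 to 8 (ctacctc) is the usual sign of canonical pairing.

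The mature sequences are shown first, because the members differ only outside the seed. The seed, in capitals, is the same GAGGUAG in all 9. The sequences and positions are those of RefSeq (GRCm38.p6).
let-7a-5p: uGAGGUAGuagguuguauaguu
let-7b-5p: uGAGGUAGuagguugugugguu
let-7c-5p: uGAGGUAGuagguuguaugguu
let-7d-5p: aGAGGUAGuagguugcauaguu
let-7e-5p: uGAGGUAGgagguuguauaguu
let-7f-5p: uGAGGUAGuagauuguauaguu
let-7g-5p: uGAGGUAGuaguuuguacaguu
let-7i-5p: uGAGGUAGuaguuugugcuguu
miR-98-5p: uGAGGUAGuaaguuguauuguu
Counted from the 5′ end against let-7a, let-7c differed by A19G, let-7e by U9G and let-7f by G12A, while let-7b carried A17G and A19G. let-7d carried U1A and U16C, let-7g carried G12U and U18C, and miR-98 carried G11A and A19U. let-7i was the most distant, with G12U, A17G, U18C and A19U. The 2 most frequent members lie near each other on chromosome 15, let-7b at chr15:85707325-85707346 and one copy of let-7c at chr15:85706616-85706637, both on the plus strand. miR-98 lies at chrX:151913229-151913250 beside a copy of let-7f at chrX:151912353-151912374.

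The members could be told apart in most reads. Of the 1213 distinct reads, 1201 were listed with 1 member and 12 with 2 or 3. Of 1195 that aligned in sense without a mismatch, 1178 had a segment found in 1 member only. The alignments were close to full length: 1340 of the 1515 reads (88.4%) covered 21 or 22 nt, 1479 started at base 1 of the miRNA, and 1499 had no mismatch or gap. Antisense alignments to a let-7 miRNA made up 7 reads.

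WT A stood apart from the other libraries. It held 16324 chimeric reads in all, against 7192 in WT B, 6326 in KO A and 6476 in KO B, and let-7 took a smaller share of them. let-7 made up 236 reads in WT A, or 144.6 per 10000 chimeric reads (95% Clopper-Pearson interval 127 to 164). It made up 365 in WT B (508 per 10000, 458 to 561), 438 in KO A (692, 631 to 758) and 476 in KO B (735, 673 to 801). These intervals cover counting error only, since PCR copies are not separate molecules. The share of distinct let-7 reads sequenced more than once was 6.85% in WT A and 10.4% in KO B, against 31.6% in WT B and 30.5% in KO A. All totals count chimeric reads and are not sequencing depth. The deleted miRNA, miR-379-5p, was listed in 2 reads of WT A, 1 of WT B and 0 of each KO library, counts within the 3 reads that a count of 0 allows, so these reads do not check the labels. Of the marker genes, the mesangial list was listed in chimeric reads of any miRNA for 10 of its 13 genes (363, 141, 115 and 116 reads in WT A, WT B, KO A and KO B), with Itga8, Gata3 and Thy1 at 0. The podocyte list had 0 to 3 reads a library, and the endothelial, proximal tubule and immune lists had 0 in each. Chimeric reads do not measure expression.

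Both KO libraries held a larger let-7 share than both WT libraries. The mean was 714 ± 30.2 per 10000 (SD, n = 2) in KO and 326 ± 257 (SD, n = 2) in WT, and the difference of 388 gave an exact two-sided permutation p of 0.333, the smallest that 2 against 2 allows. By edgeR the log2 fold change of the family, KO over WT, was 1.14 (SE 0.71) with an adjusted p of 0.993 over 621 miRNAs and an unadjusted p of 0.116. The difference did not pass the test. The log2 fold change shrank to 0.47 without WT A (adjusted p = 0.999) and grew to 2.51 without WT B (adjusted p = 0.579). Over all miRNAs tested, 0 of 621 (0.0%) had an adjusted p below 0.05, 24 (3.86%) had an unadjusted p below 0.05, 293 (47.2%) had a log2 fold change above 0, and 73 (11.8%) had both KO libraries above both WT libraries. This is a share of chimeric reads and not a level of let-7, and it moves with the other reads of each library. In bulk libraries, fewer cells of a type and less RNA per cell cannot be told apart.

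let-7b and let-7c led the members in each library, and the order of the others changed between libraries. let-7b made up 46.6, 202, 324 and 290 of 10000 chimeric reads of WT A, WT B, KO A and KO B, and 40.5% of all let-7 reads (614 reads). let-7c was listed in 71, 96, 107 and 150 reads (28.0%). WT A was the lowest library for both by share, with let-7c at 43.5 per 10000, and both KO libraries were above both WT libraries. let-7a (166 reads in all) and let-7e (152 reads) came next and overlapped in rank between libraries, followed by let-7f with 83 reads. let-7i had 39 reads, let-7d 31, let-7g 20 and miR-98 7.

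**Figure D1:**
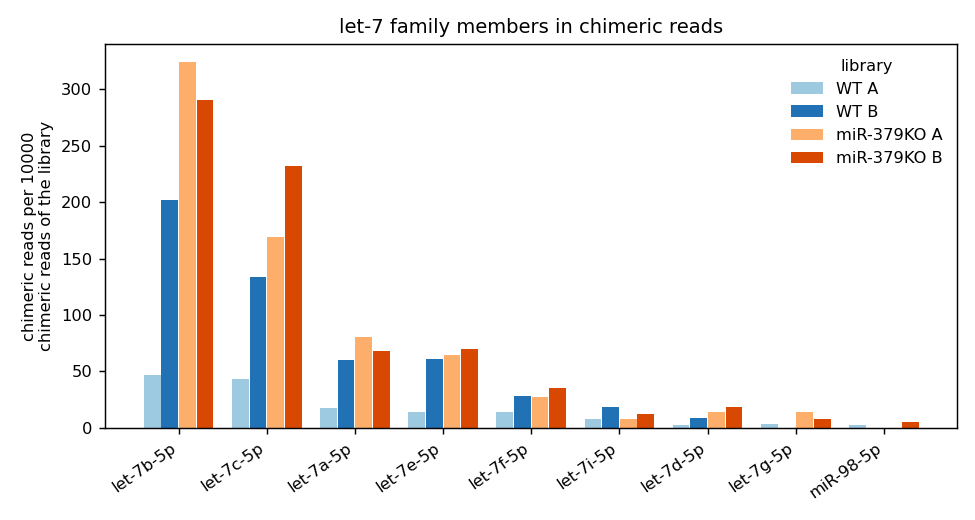
Chimeric reads of each let-7 family member per 10000 chimeric reads of the library, 1 bar for each of the 4 libraries. let-7b reached 324 per 10000 in KO A and 46.6 in WT A, and miR-98 was at 0 in WT B and KO A.

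Of the 8 members with at least 10 reads, 0 passed an adjusted p of 0.05 by edgeR, as for all 628 mature miRNAs tested (0.0%). For 6 of the 9 members both KO libraries were above both WT libraries by share, where 12.4% of all miRNAs tested were. WT A was the lowest library by share for let-7a to let-7f, but not for let-7g, let-7i or miR-98. Unadjusted p-values below 0.05 were found for 2 members by edgeR (27 of 628, or 4.3%, of all miRNAs). let-7g had 6, 0, 9 and 5 reads in the order above, with a log2 fold change of 2.34 (SE 0.98) and an adjusted p of 0.987. let-7d had 4, 6, 9 and 12 reads, with 1.81 (SE 0.87) and an adjusted p of 0.987. let-7i, with 13, 13, 5 and 8 reads, was the only tested member with a negative value, -0.24 (SE 0.83, edgeR adjusted p = 0.993), and its sign turned without WT B or without KO A. The log2 fold change was above 0 in 7 of the 8, against 46.5% of all miRNAs tested, and its median was 1.08, beside -0.09 over all miRNAs. The members make up the family total, whose log2 fold change was 1.14, so their common direction is not separate from it.

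The let-7 alignments differed in form from those of the other miRNAs pooled, while single miRNAs such as miR-690 had sense and length shares close to theirs. Sense alignments made up 97.9% of let-7 reads in WT A, all of them in WT B, 99.8% in KO A and 99.8% in KO B, while 69.2% to 70.1% of the reads of the other miRNAs aligned in sense. Alignments of at least 16 nt made up 93.2%, 98.4%, 98.2% and 99.4% of let-7 reads in the same order, against 27.8% to 33.5% of the others. The mean within-library difference was 29.8 ± 1.17 percentage points for sense and 67.2 ± 3.20 for length (SD, n = 4). Each had the same sign in 4 of 4 libraries and the smallest exact sign-flip permutation p that 4 libraries allow (0.281 after Benjamini-Hochberg adjustment over 18 comparisons of shares). A miRNA segment that was found with its flanking bases elsewhere in the genome was listed for 0.210% to 2.12% of let-7 reads, and none of these reached 16 nt, whereas 34.5% to 51.1% of the other reads had one. For miR-690, the sense share was 99.5% or above in each library, the share of at least 16 nt was 96.97% to 97.7%, and the genome-contained share was 1.99% to 4.45%. The mesenchymal and renal fibrosis miRNAs together had 91.5% in sense, 80.6% of at least 16 nt and 11.1% genome-contained. Among sense alignments of at least 16 nt, let-7, with its 9 members counted as 1, was second to miR-690 over the 4 libraries together (1482 against 2463 reads). That rank is of the pooled libraries: by all alignments, miR-3473b (801 reads) was also above let-7 (236 reads) in WT A. Among sense alignments of at least 16 nt, let-7 was below miR-690 in WT A (220 against 1192) and WT B (359 against 512). It was above miR-690 in KO A (430 against 343) and KO B (473 against 416). let-7 took 5.05% of them in WT A, 14.2% in WT B, 20.3% in KO A and 23.2% in KO B (exact permutation p = 0.333). Within let-7, WT and KO did not differ beyond the library spread in sense share (difference 0.840 points, exact permutation p = 1.0) or in length (2.98 points, exact permutation p = 0.667).

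In all, 379 of the 1515 let-7 reads were joined to a segment with a full seed match. The match to bases 2 to 8 was held by 25.8% of let-7 reads in WT A (95% interval 20.4% to 31.9%), 25.8% in WT B (21.3% to 30.6%), 26.5% in KO A (22.4% to 30.9%) and 22.7% in KO B (108 of 476 reads). These shares differed by less than their counting intervals. The same letters stood in the target segments of 0.284%, 0.413%, 0.425% and 0.322% of the reads of other miRNAs. The mean within-library difference was 24.8 ± 1.67 points (SD, n = 4; higher in 4 of 4 libraries, exact sign-flip permutation p = 0.281 adjusted). For bases 2 to 7 the let-7 shares were 28.8%, 35.1%, 37.0% and 29.8%, and the other reads held this match in 0.551% to 0.751%. KO minus WT was 1.47 points for bases 2 to 7 (exact permutation p = 0.667) and -1.21 points for bases 2 to 8 (exact permutation p = 1.0), a difference without a stable sign. An A followed the match, opposite base 1 of the miRNA, in 49.9% of the 379 let-7 reads with a full match and in 30.3% of the 122 other reads that held it.

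**Figure D2:**
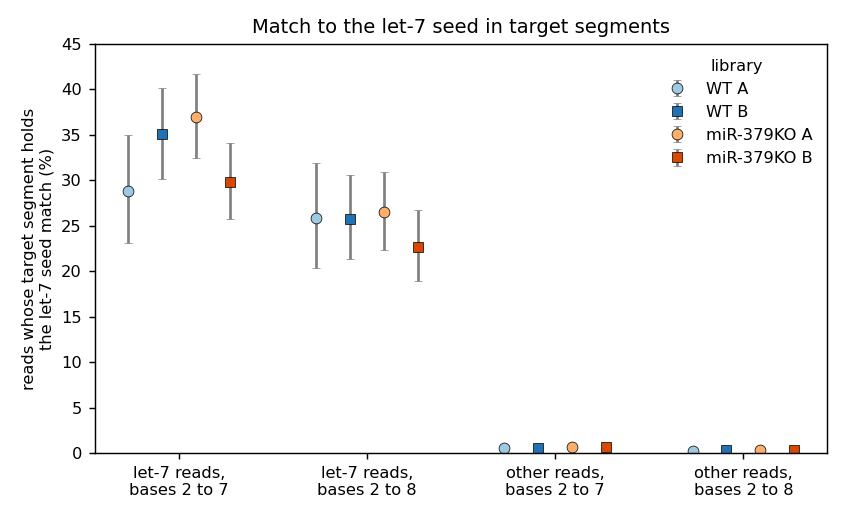
Share of reads whose target segment holds the match to let-7 bases 2 to 7 or 2 to 8, for let-7 reads and reads of all other miRNAs, by library, with 95% Clopper-Pearson intervals that cover counting error only. The let-7 points lie between 22.7% and 37.0%, and the other reads lie at 0.751% or below.

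Set against each other miRNA with its own seed, let-7 held no fixed place. The other miRNAs had a match to their own bases 2 to 7 in 23.2% to 26.97% of their reads, 7.46 ± 2.95 points below let-7 (SD, n = 4, exact sign-flip permutation p = 0.281 adjusted). Among sense alignments of at least 16 nt the order turned, and let-7 minus the others was -8.75 ± 2.54 points, below 0 in 4 of 4 libraries. That share ran from 4.59% for miR-690 to 94.7% for miR-2137 among the 10 most frequent of them, with let-7 at 33.1%. The mesenchymal and renal fibrosis miRNAs together had 577 reads and a match in 27.6%, 4.37 ± 7.23 points below let-7 over the libraries (SD, n = 4, exact sign-flip permutation p = 0.375).

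let-7f stood above let-7b in this share in each library. let-7f held a match to bases 2 to 7 in 56.5%, 55.0%, 82.4% and 78.3% of its reads in WT A, WT B, KO A and KO B, and let-7b in 17.1%, 31.7%, 30.2% and 23.9%. Over the libraries together this was 67.5% of 83 reads (95% interval 56.3% to 77.4%) against 27.04% of 614 (23.6% to 30.7%), where the intervals cover counting error only and repeated reads of 1 site are not independent. The kind of RNA joined to each member enters these shares, because 133 of the let-7b reads were snoRNA reads, which seldom held the match. Among the mRNA reads of the libraries together, let-7a, let-7b, let-7c and let-7e held the match in 36.2% to 40.2% and let-7f in 76.2%, but single libraries varied, with let-7e between 21.4% in KO B and 55.6% in WT A. Without Thbs1, few let-7f mRNA reads were left, and 11 of 15, 7 of 14, 4 of 5 and 11 of 14 held the match in WT A, WT B, KO A and KO B. The let-7b mRNA reads held it in 35.5%, 36.5%, 32.0% and 35.4% in the same order. let-7d, let-7g, let-7i and miR-98 had too few reads to place, and for let-7i the share was 38.5% of 39 reads in all but 71.4% of 21 mRNA reads, 12 of which were in WT B.

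Most let-7 reads were joined to mRNA. Coding sequence took 533 reads (35.2%), 3′ UTRs took 393 (25.9%) and 5′ UTRs took 17 (1.12%), by the transcript listed with the longest target segment in GENCODE vM21. Together the mRNA classes held 52.5% of let-7 reads of WT A, 68.2% in WT B, 66.7% in KO A and 58.4% in KO B. Small nucleolar RNAs (snoRNAs, which guide the modification of other RNAs) and their host genes took 153 reads (10.1%). Nuclear rRNA took 73 reads, mitochondrial rRNA 62, other mitochondrial transcripts 31, and 54 reads were listed with 5 or more genes. WT A and KO B were above the other libraries in the snoRNA share, at 14.4% and 13.9% against 6.85% in WT B and 6.39% in KO A. These are also the libraries with few repeatedly sequenced reads, and the part of that difference in the result was not tested.

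**Figure D3:**
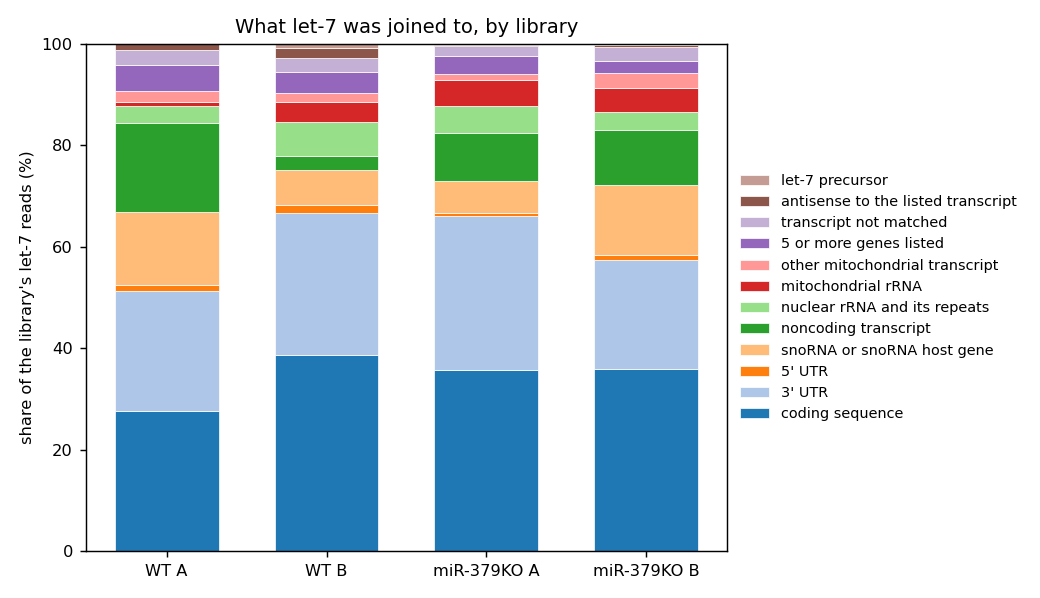
Share of the let-7 reads of each library by the kind of RNA joined to the miRNA, each bar summing to the library's let-7 reads. The coding sequence class runs from 27.5% in WT A to 38.6% in WT B, and the snoRNA class is larger in WT A and KO B.

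The seed match went with the class of RNA. It was present for bases 2 to 7 in 44.0% of 3′ UTR reads, 38.6% of coding sequence reads and 91.9% of mitochondrial rRNA reads. It was present in 1.96% of snoRNA reads and in 0 of 73 nuclear rRNA reads. These were read on the read strand, and 62 of them hold the seed letters gaggtag there, so that their complement holds ctacctc. In mRNA as a whole the share was 40.3%, 43.8%, 40.4% and 38.5% in WT A, WT B, KO A and KO B. For bases 2 to 8 it was 34.7%, 30.9%, 25.7% and 26.6%, with both WT libraries above both KO libraries, which was not tested. Without the single gene Thbs1 the share for bases 2 to 7 was 36.0% (39.3%, 37.6%, 33.6% and 35.5%, again with both WT libraries above both KO libraries), and the 3′ UTR share fell from 44.0% to 31.7%. mRNA reads in which the miRNA came before the target held the match in 51.5% of 402 reads, and those with the target first in 32.7% of 541. Without Thbs1 these were 41.1% and 32.8%, with a small gap in WT A (40.0% and 39.1%) and WT B (39.0% and 36.2%) and a larger one in KO A (40.95% and 28.7%) and KO B (43.96% and 31.0%). Whether this gap differs between genotypes was not tested. In all mRNA reads with the match, Thbs1 included, it lay a median of 24 nt from the joint where the miRNA came first (207 reads). Where the target came first the median was 21 nt (177 reads). The deposited minimum free energy, whose unit is not stated, had a median of -18.8 with and -19.1 without a match in WT A, -21.4 and -21.3 in WT B, -20.9 and -20.8 in KO A, and -20.8 and -20.5 in KO B, so that the order in WT A was the opposite of the others.

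**Figure D4:**
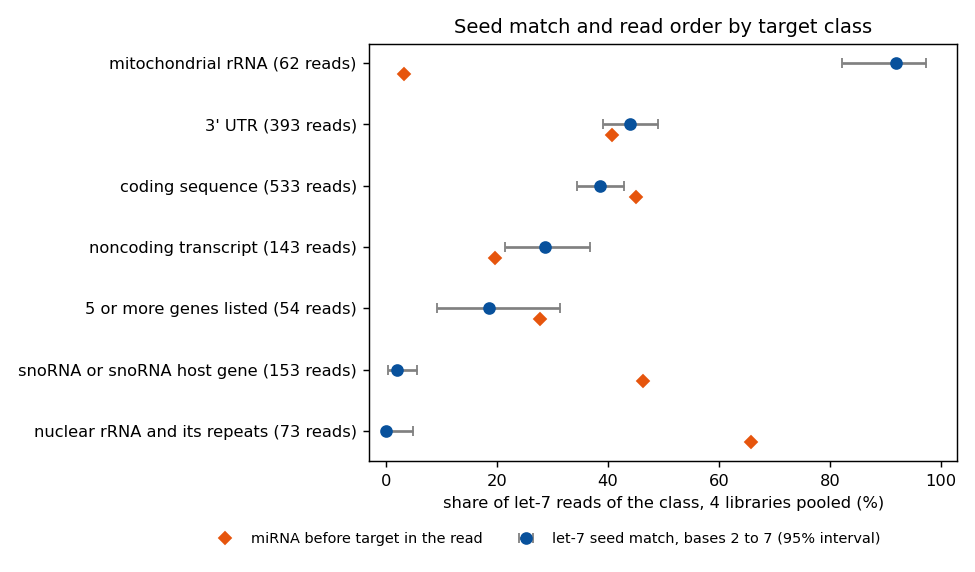
Share of let-7 reads with a match to bases 2 to 7 (circles, 95% Clopper-Pearson intervals for counting error) and share with the miRNA before the target (diamonds), by class of target RNA over the 4 libraries together. Mitochondrial rRNA is at 91.9% and 3.23%, and nuclear rRNA at 0.0% and 65.8%.

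The target segments that carry these results are shown in 30-base windows on the strand of the RNA (GRCm38), with the match to the let-7 seed in capitals. The first 6 are sites of matrix, actin and mitochondrial RNAs with many reads or members, and the last 3, all in lower case, are recurrent sites without the match to bases 2 to 7. The Gm23212 window does hold ctacct, which pairs with bases 3 to 8.
Thbs1: ctatacaaatatTACCTCatttgttgtgtg
mt-Rnr1: ataaaccccgctCTACCTCaccatctcttg
Acta2: agatctcaccgaCTACCTCatgaagatcct
Fbln2: catccacagttgCTACCTCgattccgggca
Mmp14: ctcaacccagaaCTACCTCtcggccctctg
Plod2: ccaaccccctttCTACCTCgattcctgaac
Gas5 at Gm23212: atgatgacgaacaaatactgactacctgaa
Gas5 at Gm25789: caacttgaactctctcactgattacttgat
Actn1: tcacgcctcaggagatcaatggcaaatggg
The Thbs1 window is chr2:118126527-118126556 (plus strand), within the 3′ UTR, and the mt-Rnr1 window is bases 637 to 666 of the mitochondrial genome. Acta2 (chr19:34246110-34246139, minus strand), Fbln2 (chr6:91234267-91234296), Mmp14 (chr14:54438698-54438727) and Plod2 (chr9:92593784-92593813) are in coding sequence. The Gas5 windows are chr1:161036687-161036716 and chr1:161038330-161038359, and the Actn1 window is chr12:80174465-80174494 on the minus strand, in coding sequence. The reads with the longest let-7 alignment and a full match also named sites in Akap10, Chd1 and E2f6, each from a read with 2 or 3 copies in 1 library.
Akap10: atctgccagcctCTACCTCcccagttgaca
Chd1: acagacccgtgcagaCTACCTCatcaaact
E2f6: acctagcgctctCTACCTCagtgggtaagt
These lie at chr11:61892957-61892986 (minus strand), chr17:15760372-15760401 and chr12:16826406-16826435. The Akap10 and E2f6 sites are in 3′ UTRs and the Chd1 site in coding sequence.

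Thbs1, which encodes the matrix protein thrombospondin-1, an activator of latent TGF-beta, was the leading mRNA target. It had 2, 28, 30 and 13 let-7 reads in WT A, WT B, KO A and KO B. WT A was the low library, and the genotypes overlapped. Of the 73 reads, 71 fell on the one 3′ UTR site shown, all 71 with the miRNA first and all with a match to bases 2 to 7 but not to base 8. The site was joined to 7 members (15 reads each of let-7a and let-7f, 13 of let-7b, 11 of let-7e, 9 of let-7c, 5 of let-7g and 3 of let-7i), a more even spread than the whole family, where let-7b held 40.5%. let-7 made up 45.3% of the chimeric reads of Thbs1 over all miRNAs. The log2 fold change of the pair was 0.96 (SE 1.10, edgeR adjusted p = 0.982), and it was -0.02 without WT A.

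Gas5, a noncoding host gene of snoRNAs, had the most let-7 reads of any gene, 32, 19, 25 and 59 in the same order. All were listed with a second gene, the snoRNA inside it. The site at Gm23212 took 78 reads, the site at Gm25789 took 56, and neither held a match to bases 2 to 7. As a share of let-7 reads Gas5 took 13.6% in WT A and 12.4% in KO B but 5.21% in WT B and 5.71% in KO A. Gas5 had a log2 fold change of 1.63 (SE 0.86, edgeR adjusted p = 0.982).

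Most snoRNA reads were let-7b, the most frequent member. Of 153 reads, 133 were listed with let-7b and 20 with let-7f, let-7g, let-7i or miR-98, while let-7a, let-7c, let-7d and let-7e had 0 of 763 reads there, which allows a share of up to 0.393%. All 56 reads at Gm25789 and all 13 at the Snhg1 and Snord22 site were let-7b, and at Gm23212 let-7b had 62 of 78. The let-7 segment was of 21 or 22 nt in 131 of the 153 reads, long enough to tell let-7b from let-7c. As a share of a member's own reads the class took 21.7% of let-7b, 5 of 20 reads of let-7g, 20.5% of let-7i, 2.41% of let-7f and 5 of 7 reads of miR-98. Reads of one site share their target and are not replicates.

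mt-Rnr1, the mitochondrial 12S rRNA, had 2, 14, 21 and 21 reads, with the target first in every one. The match to bases 2 to 8 was present in 57 of the 58 reads, and 57 fell on the site shown. At this site 29 reads were let-7b, 14 let-7c and 6 let-7f, and let-7 made up 72.5% of the chimeric reads of the gene. Both KO libraries were above both WT libraries by share (33.2 and 32.4 per 10000 against 1.23 and 19.5), and the log2 fold change was 1.91 (SE 1.07, edgeR adjusted p = 0.982).

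Nuclear 18S rRNA reads were of another kind. Rn18s-rs5 had 8, 25, 23 and 17 reads, all listed antisense to its annotated transcript. The read strand itself held the let-7 seed letters gaggtag in 62 of the 73 (84.9%), and the deposited pairing was drawn on the complement of the read in 90.0% of the 60 distinct reads. let-7 made up 1.04% of the chimeric reads of this gene, and any pairing of these reads in the orientation of the read was not drawn in the files.

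Actin mRNAs, which encode the contractile and cytoskeletal filaments, were joined within coding sequence, apart from 1 Acta2 read whose transcript was not matched. Acta2, the smooth muscle actin of mesangial cells, had 3, 10, 6 and 3 reads, Actb had 2, 8, 7 and 3, and Actg1 had 1, 2, 4 and 4. All 22, 20 and 11 held the match to bases 2 to 8. All Actg1 reads were listed together with other genes, among them the pseudogenes Gm12715 and Gm8399, so the counts of these near-identical genes are uncertain. Actn1, an actin cross-linking protein, differed from these. It had 1, 21, 5 and 2 reads, 21 of them in WT B, none with a seed match, and only let-7a (25 reads) and let-7e (4 reads) were listed. Its log2 fold change was -1.19 (SE 1.31, edgeR adjusted p = 0.982), the only negative value among the let-7 pairs tested. WT B held 21 of the 29 reads. Per 10000 chimeric reads Actn1 was at 0.613 in WT A, 29.2 in WT B, 7.90 in KO A and 3.09 in KO B, so both KO libraries lay between the WT libraries, and without WT B the pair fell below the 10 reads needed for a fit.

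**Figure D5:**
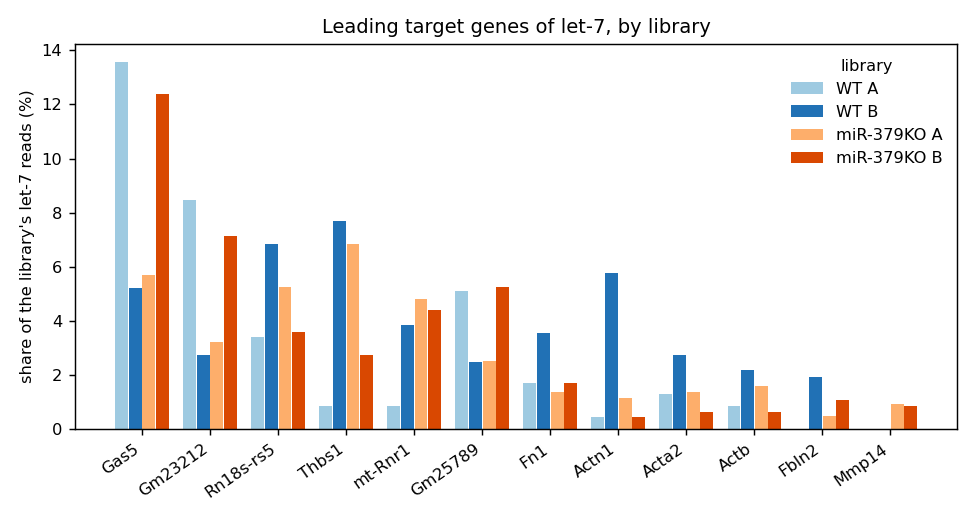
Let-7 reads listed with the 10 leading target genes, and with Fbln2 and Mmp14, as a percentage of the let-7 reads of each library. Gas5 takes 13.6% in WT A and 12.4% in KO B, and Thbs1 takes 7.67% in WT B against 0.847% in WT A; Gm23212 and Gm25789 share their reads with Gas5.

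Matrix genes were joined to let-7 at few reads apart from Thbs1 and Fn1. Of the 41 genes of the matrix and growth factor list, 36 had a chimeric read of any miRNA and 12 a let-7 read, where 11.0% of all 8440 genes had one. These gene counts were not matched for chimeric reads per gene, and a gene with more reads has more occasion to show let-7. The list held 3.39%, 12.3%, 11.0% and 7.77% of let-7 reads in WT A, WT B, KO A and KO B, and 3.34%, 2.91%, 2.61% and 3.45% of the reads of other miRNAs, so that in WT A the 2 were nearly equal. Without Thbs1 the list held 2.54%, 4.66%, 4.11% and 5.04% of let-7 reads, and 3.11%, 2.68%, 2.41% and 3.05% of the others, with let-7 the lower in WT A. Fn1 (fibronectin) had 4, 13, 6 and 8 reads, 11 of the 31 with a full seed match, all in coding sequence, and its recurrent sites of 7 and 5 reads held none. Mmp14, a membrane-bound matrix protease, had 0, 0, 4 and 4 reads, all with a full match at 1 site and from 3 members. Both WT libraries were at 0, within the 3 reads that a count of 0 allows, and the pair was below the 10 reads needed for a test. Col4a2, a basement membrane collagen chain, had 1, 2, 3 and 2 reads, none with a match, and Col5a1 had 1, 0, 1 and 2, all 4 with a match to bases 2 to 7. Ctgf had 4 reads, Lamc1 and Lox 3 each, and Igf1, Smad3, Smad7 and Tgfb3 1 each. Fbln2 (fibulin-2, a matrix glycoprotein outside the list) had 0, 7, 2 and 5 reads, all 14 at 1 site with a full match and the miRNA first.

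Of 61 textbook let-7 targets, 33 had a chimeric read of any miRNA and 12 had a let-7 read (36.4% of the 33, against 11.0% of all 8440 genes). A gene with more chimeric reads has more occasion to show a let-7 read, and these gene shares were not matched for that. The listed targets held 94 let-7 reads, 73 of them on Thbs1, and 83 with a match to bases 2 to 7. The list took 1.27% of let-7 reads of WT A, 8.22% in WT B, 8.45% in KO A and 5.04% in KO B, against 0.764% to 1.42% of the reads of other miRNAs. Thbs1 carried this contrast: without it the list held 1, 2, 7 and 11 let-7 reads (0.424%, 0.548%, 1.60% and 2.31%), against 0.665%, 0.644%, 0.560% and 1.02% of the others, so that let-7 was the lower in both WT libraries and the higher in both KO libraries. The rest had 1 to 3 reads each. Among them, Rdx and Nr6a1 had 3, and Ccnd1, Dicer1, Map3k1, Myc and Nras had 2. Dicer1 encodes the enzyme that cuts let-7 from its precursor, and both of its reads held a full match in coding sequence. Igf1, Map4k3 and Slc20a1 had 1. Hmga2, Lin28a and Lin28b had no chimeric read of any miRNA.

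Few sites were met in more than one library. A single genome position was found for 1108 reads, and they fell on 530 sites, of which 450 were single distinct reads, 57 had reads of 2 or more libraries and 10 had reads of all 4. A match to bases 2 to 7 was present at 42.1% of the 57 and at 27.5% of the 473 sites of 1 library. The site window was centred on the match where the segment held one, and on the middle of the segment otherwise. Reads with a match therefore fell on a common window more readily, so these 2 shares are not on equal terms. The part of this in the difference was not tested. Among genes, 554 of the 925 (59.9%) had 1 let-7 read, and 50 had a read in all 4 libraries. In 32 of those 50 each read was listed with at least 2 genes, and 14 had a read listed with that gene alone in every library: Rn18s-rs5, Thbs1, mt-Rnr1, Fn1, Actn1, Acta2, Actb, Flna, Col4a2, Fstl1, Neat1, Cers2, Fndc3b and Zcchc7. Fstl1, a secreted glycoprotein, had 1, 5, 1 and 1 reads, 7 of the 8 with a match. Flna, an actin cross-linker, had 1, 3, 4 and 2, and Cers2, a ceramide synthase, had 1, 1, 2 and 2, none of either with one. The 10 leading genes together took 441 reads (29.1%).

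let-7 was also joined to its own precursors, all with the precursor segment first. In WT B 3 copies of 1 read joined let-7c to Mirlet7c-1 (precursor bases 45 to 85). In KO A 1 read joined let-7e to Mirlet7b (bases 39 to 85), and in KO B 1 read joined let-7a to Mirlet7a-2 (bases 51 to 96). None was found in WT A. These 5 reads lacked a seed match in the target segment.

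Of the 25 let-7 target pairs with at least 10 reads, 0 passed an adjusted p of 0.05 by edgeR, as for all 640 pairs tested (0.0%), and 0 had an unadjusted p below 0.05 (15 of all 640 pairs, 2.34%). The log2 fold change was above 0 in 24 of the 25 (43.1% of all pairs tested), with a median of 1.22 beside -0.23 over all pairs. Without WT A, 22 pairs kept 10 reads, of which 15 were above 0, with a median of 0.75 (48.4% and -0.05 over all pairs). Both KO libraries were above both WT libraries in 15 of the 25, where 13.0% of all pairs were, and below them in 0 (16.7% of all pairs). The pairs are parts of the family total, whose log2 fold change was 1.14, so their common direction is not separate from the family share. Several of the 25 are the same reads listed with further genes. Lrrc58 had the highest log2 fold change, 2.52 (SE 1.69, edgeR adjusted p = 0.982), from 0, 2, 7 and 1 reads, each also listed with another gene.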

How the data were processed

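AGO2-CLASH chimeric reads of MMC were analysed in 2 WT and 2 KO libraries, grouped by the sample labels. The authors merged read pairs, removed merged reads aligned to the mouse genome (GRCm38) or transcripts by Bowtie2 2.1.0, a tool their processing notes name, and searched the rest on both strands against mature miRNAs and transcripts. Reads that aligned whole were thereby lost before deposit. The counts of each distinct read were deposited as whole numbers without normalization. The deposited score of a pair was not used, and its energy is given as deposited. The members and lists were chosen with earlier results of these data known.

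Each distinct read was counted once per library and family, with its count (6326 to 16324 chimeric reads per library). A count of 3 reads was the smallest taken as detectable, 1.84 to 4.74 per 10000. Tables of miRNAs, with let-7 as 1 row, and of pairs went into edgeR 4.0.16 under R 4.3.3 (its quasi-likelihood test with TMM, genotype only, at least 10 reads, Benjamini-Hochberg). Shares were compared over libraries by exact permutation (all regroupings enumerated), with one read and miRNA as the unit. The seed match was sought as the reverse complement of bases 2 to 7 or 2 to 8 in the target segment, on the read strand. miRNA segments with 10 nt on each side, and 30-base target windows, were searched in GRCm38 at full identity. A transcript of GENCODE vM21 was matched for 97.4% of distinct let-7 reads, and the other reads were kept apart as not matched. The fits and the seed search were tested on simulated data. Named were the members, the 10 genes with the most let-7 reads, genes with a read in all 4 libraries, list genes with a read, and pairs past the threshold (there were 0). Fbln2, Plod2, Snhg1 and Lrrc58 were picked with their values known.

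The results were recomputed with a replicate block, DESeq2 1.42.0, totals without TMM, no minimum count, each sequence once, leaving out each library, alignments of at least 16 nt, in sense, without mismatch, of 1 family and 1 gene, without genome-contained segments, other seed windows, and, chosen after seeing the data, sense alignments of at least 16 nt, sequences of 1 library only, and the omission of Thbs1 from classes, lists and members. Ccn2 and Ctgf of the matrix list are 1 gene and were counted once.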

Additional observations from a re-analysis of the deposited data

How the results depend on the processing

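The family log2 fold change was positive and its adjusted p above 0.05 in each alternative, between 1.04 and 1.5004 without leaving out a library and between 0.47 and 2.51 when each was left out in turn. The counts of members and of pairs called were 0 in each alternative. The letters A and B paired no libraries (correlation of the A minus B differences of WT and KO -0.067 over 621 miRNAs), and a replicate block by letter gave the family 1.5004 (unadjusted p = 0.0269, edgeR adjusted p = 0.999). The seed share of let-7 minus that of other miRNAs turned to -7.04 points with alignments of at least 16 nt and to -8.75 with sense alignments of that length, and ran from 6.25 to 8.60 when a library was left out. Its difference between genotypes turned to -0.20 points with reads of 1 family and 1 gene and to -1.21 with bases 2 to 8, and ran from -2.11 to 5.05 when a library was left out. The genotype difference in sense share ran from -0.22 to 1.90 points when a library was left out. For these 3 the cause was not tested.

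Among members and pairs, log2 fold changes that turned sign were these. let-7i was 0.52 without WT B and 0.0062 without KO A, and leaving out each library gave -0.94 to 0.52. Acta2 was -0.081 with DESeq2, -0.052 without TMM, -0.24 without a minimum count and -0.17 with reads of 1 family and 1 gene, and leaving out each library gave -0.77 (without WT A) to 1.94. Actb was -0.22 with reads of 1 family and 1 gene, and -0.31 (without WT A) to 2.62 when each was left out. Fn1 was -0.0031 without a minimum count, and -0.52 (without WT A) to 2.18 when each was left out. The lowest value was also without WT A for Fbln2 (-0.61 to 1.003), Snhg1 (-0.40 to 0.92) and Thbs1 (-0.020 to 4.71). None of these was called. Actn1 could not be fitted without WT B. With 2 libraries a genotype, exact tests cannot fall below 0.333, and pairs under 10 reads were not tested.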

Other observations

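Other names of the let-7 locus were listed at few reads: let-7k in 6 reads, let-7j in 4, and the 3p arms of let-7c-1, let-7f-2, let-7g and let-7i in 1 each. None of these had a sense alignment of at least 16 nt.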
